A study of Mus musculus with 21 samples.

Results

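The microRNAs of the mouse olfactory bulb were compared between postnatal days 15 and 28 (P15 and P28). The libraries were chosen by the tissue and age given in the sample labels, and no measured value entered that rule. This choice and that of the microRNA lists used below were made with earlier results of these data known. The chosen libraries are 6 of the 21 in the series, 3 from bulbs at P15 and 3 from bulbs at P28. The other 15 libraries came from the rostral migratory stream (RMS) at the same ages (1 library at P15 and 2 at P28) and from the dorsal and lateral subventricular zone (SVZ) at P1 and P6 (12 libraries). All tissue was dissected from brains of mice of the CD1 strain. No treatment or genetic change is named in the labels, so both bulb groups are taken as untreated animals that differ in age. The labels do not state the sex of the mice, the number of animals per library or whether animals were pooled, and they do not say that the libraries came from separate animals, so the p-values below measure only the spread between these libraries, which may be technical. RNA fragments of 15 to 50 bases were sequenced on a SOLiD 5500XL instrument, and the series was designed to follow microRNAs in time and space along postnatal neurogenesis.

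MicroRNAs are short RNAs cut from a hairpin precursor. The mature strand is loaded into an Argonaute protein and pairs with messenger RNAs mainly through its seed, the bases after the first at its 5′ end, which lowers the stability or translation of the target. The olfactory bulb is the first relay of smell, and it goes on receiving new interneurons from the SVZ through the RMS after birth. MicroRNAs with the same seed are grouped into a family because they can recognise the same target sites, and microRNAs encoded close together are often cut from 1 shared transcript. A name with a star below is the strand that the annotation lists as the less abundant of a hairpin, and a name that starts with pre- is the hairpin itself.

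The mature sequences of the families on which the comparison turned are printed first, so that shared seeds can be read directly. They were taken from RefSeq (GRCm38.p6) by name, and 27 of the 31 names looked up had an entry. Each is written 5′ to 3′ with the seed (bases 2 to 8) in capitals. The 5 members of the miR-200 family carry 2 seeds that differ at 1 base, C4U in miR-200b, miR-200c and miR-429 relative to miR-200a and miR-141, with positions counted from 1 at the 5′ end.
miR-200a: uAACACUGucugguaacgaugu
miR-141: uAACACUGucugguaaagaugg
miR-200b: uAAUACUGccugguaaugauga
miR-200c: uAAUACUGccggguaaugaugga
miR-429: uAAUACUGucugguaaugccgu
The 3 microRNAs of the miR-183 cluster are encoded side by side, and their seeds are alike without being identical.
miR-182: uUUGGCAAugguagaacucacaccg
miR-96: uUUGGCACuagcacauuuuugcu
miR-183: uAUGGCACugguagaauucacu
The 3 members of the miR-29 family share 1 seed, and miR-29a and miR-29c differ at the single position C10U.
miR-29a: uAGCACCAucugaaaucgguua
miR-29b: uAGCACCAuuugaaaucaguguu
miR-29c: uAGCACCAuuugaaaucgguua
miR-132 and miR-212-3p, which come from neighbouring hairpins, also share a seed.
miR-132: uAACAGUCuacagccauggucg
miR-212-3p: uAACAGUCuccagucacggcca
Among microRNAs that were lower at P28, miR-130a, miR-130b and miR-301a share a seed.
miR-130a: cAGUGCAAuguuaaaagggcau
miR-130b: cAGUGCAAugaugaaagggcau
miR-301a: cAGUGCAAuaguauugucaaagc
The last pair has 1 seed and changed in opposite directions.
miR-193: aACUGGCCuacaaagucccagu
miR-193b: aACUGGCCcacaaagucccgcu

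Values are the normalised read counts deposited by the authors, rounded to whole numbers and called the score below. The sorted scores of different libraries followed the same curve apart from 1 factor per library (after dividing by that factor, the coefficient of variation over libraries at rank 100 was 0.00728%), so totals are not depths, the sequencing depth is unknown, and no counting interval can be given. Correlations of log2 scores were 0.968 to 0.975 between libraries of the same age and 0.954 to 0.968 between ages, and no pair of libraries shared more than 2.09% identical values. MicroRNAs made up 73.1% ± 2.59 of the score at P15 and 80.9% ± 0.952 at P28 (SD, n = 3 per age), while fragments of tRNA made up 14.4% ± 3.14 and 6.92% ± 1.59. The ages did not overlap in either share, and the exact two-sided permutation test gave its smallest possible p of 0.1 for each. The part of this shift in the microRNA changes below was not tested. As a check of the tissue label, the summed score of the miR-200 family was 94828 to 273331 in the bulb libraries and at most 817 in the RMS and 136 in the SVZ. The summed miR-7 family did not mark the bulb, at 8092 to 10410 there and 9163 to 10503 in the RMS.

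Between P15 and P28 the bulb gained microRNAs of the miR-200, miR-183 and miR-29 families and of the miR-132 with miR-212 pair, and miR-124, the most abundant microRNA at P15, fell to a level 2.15 times lower. Of 1445 microRNA features (mature strands, star strands and hairpins), 718 had a score of at least 10 in at least 3 of the 6 libraries and were tested. In limma, with Benjamini-Hochberg adjustment over these 718 and a threshold of 0.05, 110 features differed (15.3%), of which 92 were higher (12.8%) and 18 lower (2.51%) at P28. The libraries of the ages did not overlap in 241 features (33.6%), 189 of them higher (26.3%) and 52 lower (7.24%) at P28. Mature strands gave 55 rises and 14 falls of 368, star strands 20 rises and no falls of 163, and hairpins 17 rises and 4 falls of 187.

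The size of this split depends on the scale. The median log2 fold change of all 718 features was 0.23, and after rescaling with trimmed-mean factors it was -0.04, with 59 features higher (8.22%) and 53 lower (7.38%). As deposited, 482 of the 718 had a positive and 236 a negative change. Counts of signs in the families below are to be read against these. Of the 110 features, 77 were also called after rescaling, 59 higher and 18 lower, and none changed sign. Without P15 replicate 2 the count was 56, without P15 replicate 3 it was 57, and without P28 replicate 1 it was 70. The bulb libraries were tighter than the rest of the series, with a median residual SD on the log2 scale of 0.353 against 0.592 in the 15 other libraries. When all 21 libraries shared 1 estimate of the spread, 6 features were called: miR-29c, miR-29b, miR-27a, miR-23a and miR-224 higher, and miR-296-3p lower.

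**Figure D1:**
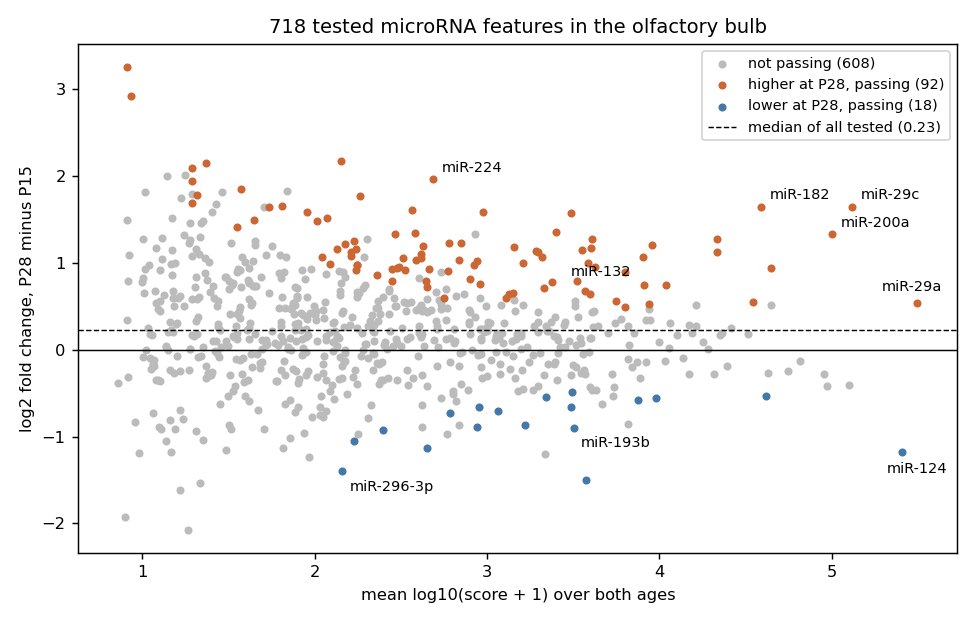
Log2 fold change from P15 to P28 (vertical axis) against the mean log10 score (horizontal axis) for the 718 tested microRNA features, 1 point each, with the 92 higher and 18 lower features coloured and the median of 0.23 dashed. The 2 most abundant features moved in opposite directions, with miR-124 at -1.17 and miR-29a at 0.54.

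The miR-200 family rose. These microRNAs are known for repressing the Zeb transcription factors and holding cells in an epithelial state, and in the olfactory system they are known from the differentiation of olfactory neurons. Of the family's 15 features 14 were tested, 9 rose, none fell, and all 14 had a positive change, with a median log2 fold change of 1.09 against 0.23 for all features tested. After rescaling, 8 rose and the median was 0.82.

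Both members with the AACACUG seed rose. Scores of miR-200a were 46527, 88189 and 56513 in the P15 libraries and 169394, 123824 and 175468 in the P28 libraries. Every P28 library was above every P15 library, and the log2 fold change was 1.33 ± 0.23 (SE, adjusted p = 0.00241). miR-141 went from 2504, 2688 and 2803 to 6378, 6579 and 5134, again with no overlap (1.17 ± 0.16, adjusted p = 0.000799). The 2 microRNAs together held 66408 ± 21806 at P15 and 162259 ± 27694 at P28 (SD, n = 3 per age), a ratio of 2.44, and most of that score was miR-200a. In bulk tissue, more cells of a type and more RNA per cell cannot be told apart.

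Of the 3 members with the AAUACUG seed, miR-429 passed the test and miR-200b and miR-200c did not. miR-429 rose from 30778, 31853 and 33210 to 64092, 60392 and 59758, with little spread at either age (0.94 ± 0.14, adjusted p = 0.00109). Its hairpin had scores of 1469, 1859 and 2045 at P15 and 5477, 4933 and 5501 at P28 (1.58 ± 0.17, adjusted p = 0.000195). miR-200b was 10377, 15327 and 13187 at P15 and 23537, 28666 and 8974 at P28. In it P28 replicates 1 and 2 lay above all P15 libraries while replicate 3 lay below them, and the change of 0.51 ± 0.34 did not pass (adjusted p = 0.364). miR-200c had the same form, 2231, 4266 and 3549 against 5236, 7532 and 2125 (0.44 ± 0.38, adjusted p = 0.482). Without P28 replicate 3 the changes were 1.02 for miR-200b (adjusted p = 0.00109) and 0.96 for miR-200c (adjusted p = 0.00755). The hairpin of miR-200b was also low in that library, at 492, 1023 and 657 against 1201, 1310 and 463 (0.86 without it, adjusted p = 0.0284). The star strand of the same hairpin was not low there, and rose by 1.36 ± 0.22 (adjusted p = 0.00163), with 3746, 3530 and 4643 at P28. Other members that rose were miR-141*, miR-200a* and the hairpins of miR-141 and miR-200a, with log2 fold changes of 0.90 to 1.52. Among these, miR-141* did not pass without P15 replicate 2 (adjusted p = 0.0710) or replicate 3 (0.0735), and miR-200a* did not pass without P15 replicate 3 (0.0648) or after rescaling (0.0846).

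**Figure D2:**
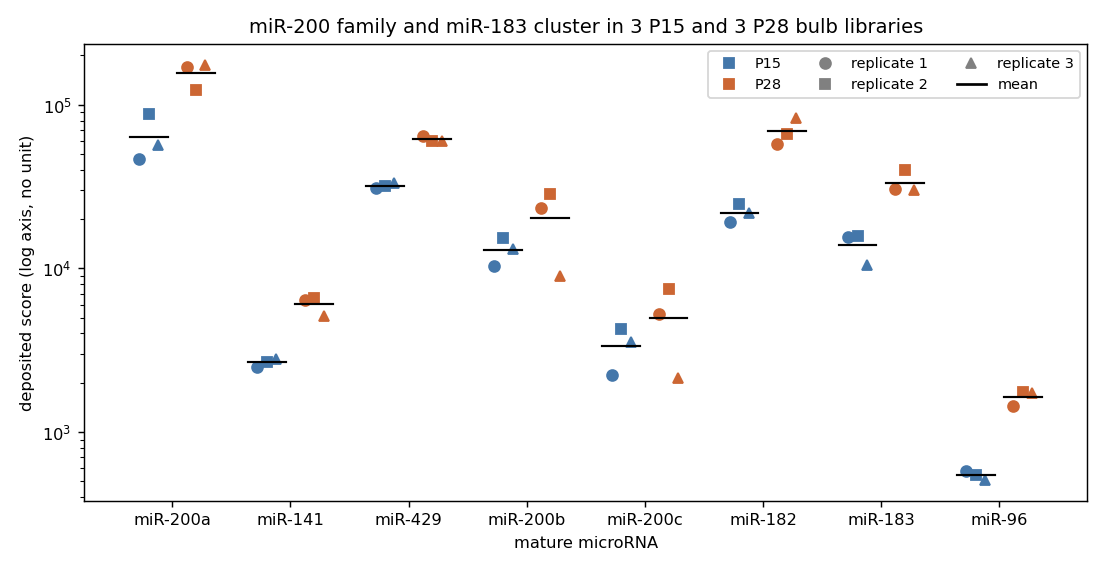
Scores of the 5 mature miR-200 microRNAs and the 3 of the miR-183 cluster (logarithmic vertical axis), 1 point per library, coloured by age and with a different symbol for each replicate. The ages are separate for all but miR-200b and miR-200c, where P28 replicate 3 lies at 8974 and 2125, below every P15 library.

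The miR-183 cluster rose as a whole. Its 3 microRNAs are known from sensory cells such as photoreceptors and hair cells, where they are expressed together. All 9 of its features were tested and all 9 rose, with log2 fold changes of 1.06 to 2.17 and a median of 1.59, and all 9 were also called after rescaling (median 1.32). miR-182, the most abundant of the 3, went from 19089, 24837 and 21761 at P15 to 57689, 66644 and 82825 at P28. The lowest P28 library was above the highest P15 library, and the log2 fold change was 1.65 ± 0.17 (adjusted p = 0.000195). miR-183 went from 15585, 15741 and 10557 to 30422, 39878 and 30072 (1.27 ± 0.19, adjusted p = 0.00109). miR-96 was the least abundant, at 575, 548 and 509 at P15 and 1452, 1745 and 1726 at P28 (1.59 ± 0.17, adjusted p = 0.000195). Both strands of each hairpin moved: miR-182* was 88, 71 and 42 at P15 and 291, 242 and 353 at P28, a change of 2.17 ± 0.32 (adjusted p = 0.00109), and miR-183* and miR-96* rose by 1.28 and 1.61. Of the 9 features, only the hairpin of miR-96 lost its call when a library was left out (adjusted p = 0.0618 without P15 replicate 2, 0.0614 without P15 replicate 3 and 0.0627 without P28 replicate 2).

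The miR-29 family rose and replaced miR-124 as the largest part of the summed score of mature and star strands. miR-29 is known to rise as neurons mature and to repress collagens, DNA methyltransferases and pro-apoptotic genes. All 11 of its features were tested, 9 rose and none fell, with a median log2 fold change of 1.16 (7 rose after rescaling, median 0.89). miR-29c had scores of 80893, 60219 and 78327 at P15 and 266864, 159616 and 276434 at P28, and its change of 1.65 ± 0.22 (adjusted p = 0.000799) was the steepest among the 3 mature members. miR-29b went from 14663, 11463 and 17782 to 37784, 29976 and 27382 (1.13 ± 0.19, adjusted p = 0.00194). Both separated the ages completely, and miR-29c climbed from rank 6 to 8 among the microRNA features of a P15 library to rank 2 or 3 at P28.

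miR-29a was the most abundant member, at 269987, 250740 and 261423 at P15 and 381079, 359082 and 394744 at P28, the top rank in all 3 P28 libraries. The top rank has the same value in every library up to the library's factor, so its height there is set by the normalisation. Its change of 0.54 ± 0.15 (adjusted p = 0.0328) did not pass after rescaling (0.27, adjusted p = 0.359), nor without P15 replicate 2 (0.0764), P15 replicate 3 (0.0792), P28 replicate 1 (0.138) or P28 replicate 3 (0.111). The star strand miR-29a* rose more, from 106, 75 and 116 to 357, 270 and 391 (1.77 ± 0.28, adjusted p = 0.00133). Over the family the share of the summed mature and star score was 15.1% ± 0.61 at P15 and 24.9% ± 2.32 at P28 (SD, n = 3 per age).

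miR-124 fell. It is the best known neuron-specific microRNA and represses non-neuronal transcripts in differentiating neurons. Its score was 385538, 358054 and 373309 at P15, the top rank in each of those libraries, and 131409, 251460 and 136121 at P28. P28 replicate 2 stood above the other P28 libraries but below all P15 libraries. The log2 fold change was -1.17 ± 0.23 (adjusted p = 0.00482), it passed in all 6 fits that leave out a library, and it was -1.44 after rescaling (adjusted p = 0.0192). As with miR-29a, the height of the top rank at P15 is fixed by the normalisation. As a share of the summed mature and star score, miR-124 went from 16.2% ± 0.598 to 6.77% ± 2.95 (SD, n = 3 per age). Hairpins mir-124-3 and mir-124-1 fell too, the first from 5659, 7718 and 5009 to 1217, 3493 and 2258 (-1.50 ± 0.31, adjusted p = 0.00672; 0.0507 without P15 replicate 2). The second fell by 1.14 (adjusted p = 0.0232), and it did not pass without any 1 of the P15 libraries or without P28 replicate 1 (adjusted p = 0.0532 to 0.0753). The star strand miR-124* did not follow, at 2557, 2294 and 2085 against 2422, 2332 and 3033 (0.16, adjusted p = 0.554).

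**Figure D3:**
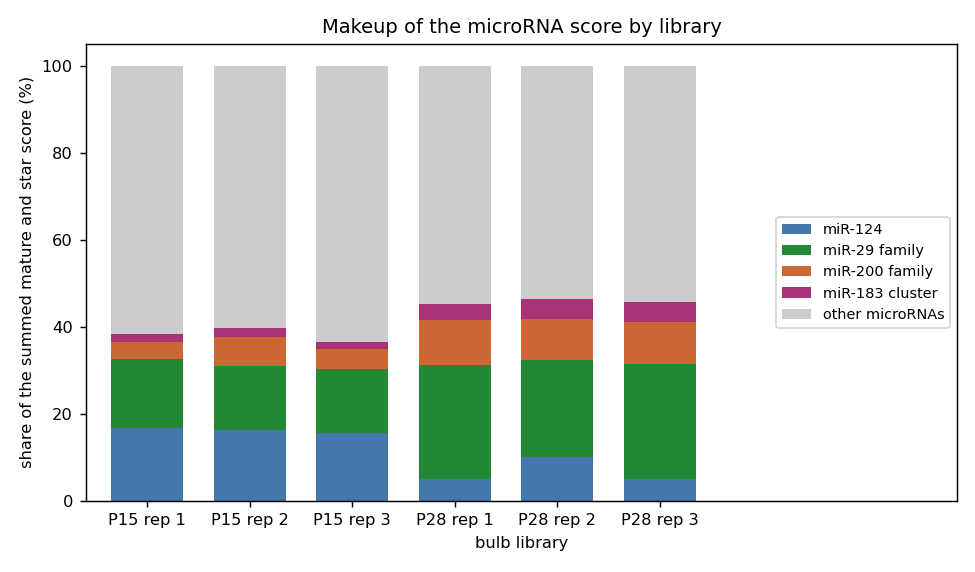
Percent of the summed score of mature and star strands (vertical axis) held by miR-124, by the families of miR-29 and miR-200, by the cluster of miR-183 and by all other microRNAs in each of the 6 libraries (stacked bars). miR-124 is 15.5% to 16.7% at P15 and 5.01% to 10.2% at P28, with P28 replicate 2 the highest of its age.

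No other neuron-enriched microRNA fell as deposited. Of 68 tested features on a list of neuron-enriched microRNAs, 6 rose and 3 fell, and the median log2 fold change was 0.12 (6 rose and 6 fell after rescaling, median -0.14). The 3 falls were miR-124 and its hairpins mir-124-3 and mir-124-1. Its remaining hairpin, mir-124-2, was not called. The list shares 18 features with other lists used here. miR-138, at rank 3 or 4 in the P15 libraries and rank 5 in the P28 libraries, was 109898, 159159 and 165940 against 108627, 102357 and 112522, and its change of -0.40 ± 0.18 did not pass (adjusted p = 0.159; 0.0278 without P15 replicate 1). miR-9, a regulator of neural progenitors, varied widely within each age, at 34298, 66453 and 106412 against 93860, 37091 and 52778, and the ages overlapped (-0.13 ± 0.38, adjusted p = 0.866). Of the other features among the 10 most abundant, miR-125b-5p was 132947, 102064 and 91946 against 79958, 88442 and 73262 (-0.42, adjusted p = 0.127; 0.0417 after rescaling), and miR-103 and miR-128 had changes of -0.28 and -0.25 that did not pass (adjusted p = 0.413 and 0.305).

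The activity-dependent pair miR-132 and miR-212 rose. Both are transcribed from 1 locus under the control of CREB and act on dendrite growth and synapses. miR-132 had scores of 6014, 4535 and 6135 at P15 and 11747, 11496 and 11552 at P28, nearly equal in the 3 older libraries (1.07 ± 0.16, adjusted p = 0.00109). miR-212-3p went from 1407, 939 and 1096 to 2645, 2161 and 2049 (1.00 ± 0.19, adjusted p = 0.00443). Together, the 2 microRNAs with the AACAGUC seed held 6709 ± 1073 at P15 and 13883 ± 441 at P28, a ratio of 2.07. miR-132* rose by 1.14 ± 0.22 (adjusted p = 0.00443). miR-212-5p was 641, 503 and 575 against 1184, 1136 and 531, and its change of 0.65 passed only when P28 replicate 3, the low library, was left out (adjusted p = 0.150 with it and 0.00245 without it, where the change was 1.02). The rises of miR-132, miR-212-3p and miR-132* were the only 3 calls among 17 tested features of the activity-regulated list. That count is to be read against the 12.8% of all 718 features that rose.

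Of the clusters that encode miR-23, miR-27 and miR-24, which exist as an a and a b copy, miR-27a and miR-23a of the a copy and miR-23b of the b copy rose. miR-27a was 1262, 1445 and 1311 at P15 and 2796, 2696 and 3290 at P28 (1.12 ± 0.16, adjusted p = 0.00109). miR-23a went from 2895, 3018 and 3252 to 5944, 5730 and 6029 (0.95 ± 0.14, adjusted p = 0.00109). In the b copy miR-23b rose by 0.50 ± 0.14 (adjusted p = 0.0342), a call lost in each of the 6 fits without 1 library (adjusted p = 0.0536 to 0.125) and after rescaling (0.321). miR-27b, which differs from miR-27a by C19U, was 3213, 3520 and 4031 against 4675, 4138 and 5936 (0.44 ± 0.17, adjusted p = 0.107). The difference between the copies was not tested. All 13 tested features of the list had a positive change, where 482 of all 718 did, and 3 of them rose.

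Outside the lists, the steepest rise among features whose P28 mean reached 50 was that of miR-224, an intronic microRNA of the gene for the GABA-A receptor epsilon subunit. Its scores were 314, 255 and 177 at P15 and 977, 947 and 924 at P28, so the ages lay far apart and the older libraries nearly coincided (1.97 ± 0.23, adjusted p = 0.000323). Its hairpin rose as well (1.66, adjusted p = 0.00846). miR-34a, which p53 is known to induce, rose from 3315, 2648 and 2268 to 4329, 5901 and 6157 (0.99 ± 0.19, adjusted p = 0.00443), and miR-34a* by 1.33. Of the 110 called features 41 were on no list, 35 of them higher and 6 lower, where all 110 split into 92 and 18. Among the 35 were miR-193, miR-375, miR-490-3p, miR-3102, miR-664 and miR-222, with log2 fold changes of 0.91 to 1.58. Apart from miR-193, the names in that last group were chosen after their values were seen. miR-1843-3p, at 18, 10 and 30 against 80, 66 and 55, rose by 1.85 ± 0.48 (adjusted p = 0.0231), and it did not pass without P15 replicate 2, P28 replicate 1 or P28 replicate 2 (0.0583 to 0.0895). miR-3085-3p fell from 760, 726 and 862 to 435, 429 and 554 (-0.73 ± 0.19, adjusted p = 0.0233), and its call was lost without P15 replicate 2 or 3 or P28 replicate 1 or 2 (0.0549 to 0.0938).

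Among features of miR-130 and miR-301, 3 of 11 tested features fell, none rose, and the median was -0.54 (5 fell after rescaling, median -0.81). miR-130a went from 51547, 47872 and 49912 to 33901, 31944 and 37324 (-0.54, adjusted p = 0.0233), miR-301a from 9200, 8368 and 10048 to 6840, 5399 and 6299 (-0.58, adjusted p = 0.0233), and miR-130b from 2153, 2131 and 2355 to 1472, 1417 and 857 (-0.86, adjusted p = 0.0182). In each the ages were separate, and their shared seed summed to 61195 ± 2463 at P15 and 41818 ± 2880 at P28, a level 1.46 times lower. The call was lost without P15 replicate 2 or 3 for miR-130b (adjusted p = 0.0557 and 0.0614), without P15 replicate 1 or 3 or P28 replicate 2 for miR-301a (0.0534, 0.0841 and 0.0797), and without any 1 library but P28 replicate 3 for miR-130a (0.0507 to 0.0902).

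The miR-17 to miR-92 clusters, which promote proliferation, gave 1 fall (miR-19b) among 26 tested features and a median of -0.12, or 5 falls and -0.37 after rescaling. miR-19b went from 11283, 10479 and 12758 to 7670, 8392 and 7423 (-0.55, adjusted p = 0.0233), with no overlap. Without P15 replicate 3, P28 replicate 1 or P28 replicate 3 its adjusted p was 0.0841, 0.0768 or 0.0529. miR-18a was low in P28 replicate 1, at 3438, 2932 and 2683 against 504, 1933 and 2284 (adjusted p = 0.0818; 0.00226 without P28 replicate 3). In the miR-181 family all 14 tested features had a negative change (median -0.28) and the hairpins mir-181a-1 and mir-181c fell by 0.89 and 0.70. The mature miR-181a, at 22473, 19160 and 27097 against 19331, 17779 and 18803, did not pass (adjusted p = 0.274). The hairpin mir-181c lost its call without any 1 of the 3 P15 libraries (adjusted p = 0.0507 to 0.0630) or P28 replicate 2 (0.0779).

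miR-296 and miR-298, neighbours in the imprinted Gnas region, fell together. miR-296-3p was 307, 196 and 200 at P15 and 74, 80 and 108 at P28 (-1.40 ± 0.30, adjusted p = 0.00773), and no omitted library ended the call. miR-298 went from 294, 209 and 221 to 96, 110 and 144 (-1.05, adjusted p = 0.0233), and miR-296-5p from 4163, 3347 and 3970 to 2113, 2265 and 2942 (-0.66, adjusted p = 0.0233). Both had separate ages but depended on single libraries: miR-298 did not pass without any 1 of the P15 libraries, P28 replicate 1 or P28 replicate 2 (adjusted p = 0.0520 to 0.0940), and miR-296-5p without P15 replicate 1 or 3 or P28 replicate 1 or 2 (0.0687 to 0.0902).

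miR-193b fell from 4535, 3924 and 4580 to 2528, 1947 and 2564 (-0.90 ± 0.17, adjusted p = 0.00403), with a complete separation of the ages that held without any 1 library. miR-193, which has the same seed, rose from 78, 33 and 47 to 153, 141 and 157 (1.58 ± 0.36, adjusted p = 0.0116; 0.0505 without P15 replicate 2). Because miR-193b was the more abundant, the sum of the 2 was 4399 ± 383 at P15 and 2497 ± 354 at P28 (SD, n = 3 per age).

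The large imprinted Dlk1-Dio3 cluster, whose many microRNAs are active in the brain, had few features past the threshold on the deposited scale. Of 102 tested features 3 fell (miR-770-3p, miR-665 and miR-409-3p, by 0.93, 0.65 and 0.49) and none rose, with a median of -0.05. After rescaling 18 fell and the median was -0.32, so the number depends on the scale. Of all 718 features 2.51% fell as deposited, a share near that of the cluster, and 7.38% fell after rescaling. The call was lost without P15 replicate 1 or 3 or P28 replicate 2 for miR-770-3p (adjusted p = 0.0534 to 0.0625), without any of these or P28 replicate 1 for miR-665 (0.0573 to 0.0901), and without any 1 of the 6 libraries for miR-409-3p (0.0728 to 0.126). The miR-7 family, which is known in the bulb for shaping dopaminergic interneurons, gave no call among 8 tested features. miR-7a was 1774, 1725 and 2160 at P15 and 1407, 1397 and 1302 at P28, separate by age but not past the threshold (-0.46 ± 0.16, adjusted p = 0.0869), while miR-7a, miR-7b* and miR-7a-2* fell after rescaling. miR-7b was 696, 587 and 636 against 633, 509 and 598 (-0.14, adjusted p = 0.661), and miR-7a-1*, the most abundant of the 8 features, was 5297, 4393 and 5129 against 6164, 5271 and 6999 (0.31, adjusted p = 0.234). The hairpin mir-7a-2 passed only without P28 replicate 2 (-3.42, limma adjusted p = 0.0434). Over the 6 fits without 1 library its change ranged from -3.42 to -0.90, with an adjusted p of up to 0.61.

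In the let-7 family 28 of 30 tested features had a positive change, where 482 of all 718 did. Of the 30, 2 rose (let-7f-1* and the hairpin of let-7f-1), to be read against the 12.8% of all features that rose. The median of 0.33 became 0.06 after rescaling. The call of let-7f-1* was lost without P15 replicate 2 or 3 or P28 replicate 1 (adjusted p = 0.0567 to 0.0902), and that of the hairpin without any 1 library but P15 replicate 1 (0.0582 to 0.159). In the miR-26 family 2 of 6 tested features rose, miR-26a and miR-26b, and none did after rescaling (median 0.62, then 0.35). miR-26a went from 29371, 25990 and 31164 to 42321, 43334 and 40774 (0.55, adjusted p = 0.0231; 0.262 after rescaling), and it did not pass without P15 replicate 2 (0.0735), P28 replicate 1 (0.0768) or P28 replicate 2 (0.0548). miR-26b rose by 0.64 (adjusted p = 0.0221), a call lost without P15 replicate 2 or 3 or P28 replicate 1 (0.0503 to 0.0902). In the miR-30 family 1 of 17 tested features rose, miR-30d, from 3249, 3156 and 3146 to 4896, 4728 and 5296 (0.64, adjusted p = 0.0103; 0.0756 after rescaling). The miR-15/16 family (22 tested features), the miR-99, miR-100 and miR-125 family (13) and miR-9 with miR-92b (7) had no feature past the threshold as deposited. In the Sfmbt2 cluster 1 of 25 tested features rose, miR-466d-3p (0.98, adjusted p = 0.0342), and it did not pass without any 1 library but P15 replicate 1 (0.0528 to 0.165).

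**Figure D4:**
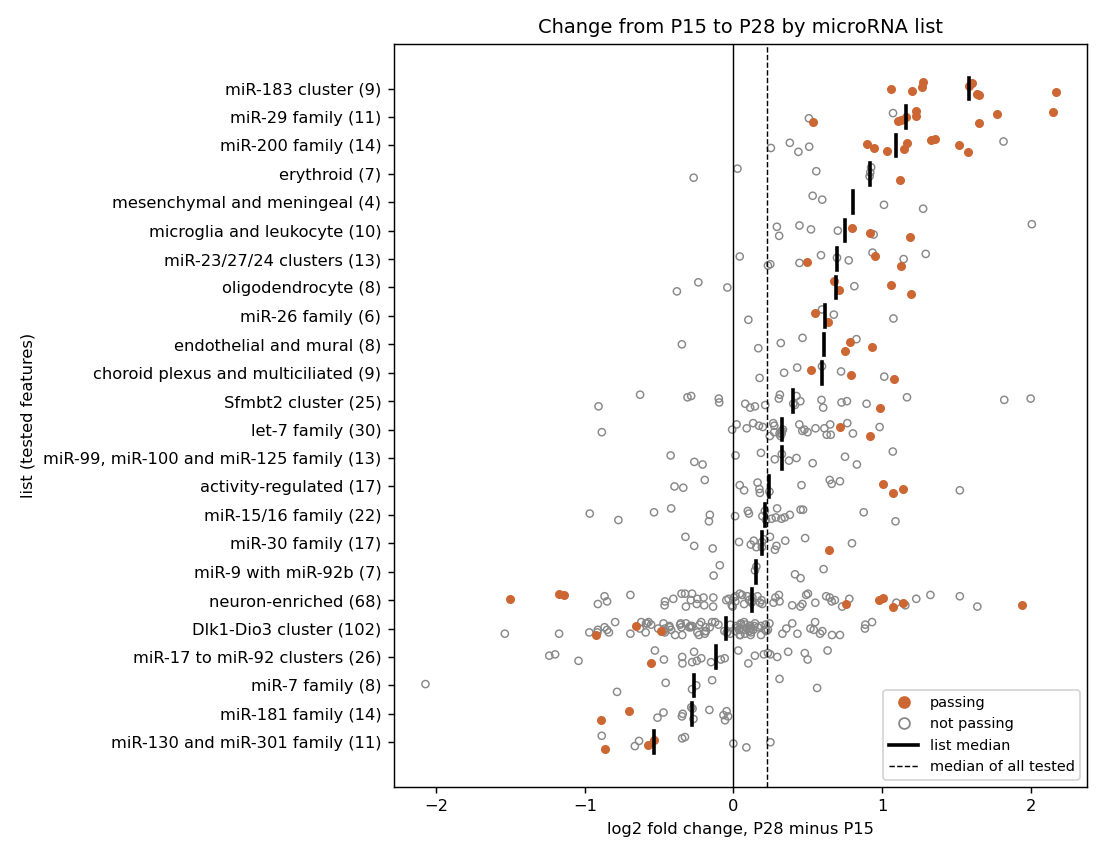
Log2 fold change from P15 to P28 (horizontal axis) of each tested feature on each microRNA list (rows), filled where it passed, with a bar at the median of the list and a dashed line at the median of all 718 features (0.23). The 9 features of the miR-183 cluster are all filled and lie from 1.06 to 2.17, and the 14 of the miR-181 family all lie below 0.

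Some marker microRNAs of cells other than neurons were higher at P28, and their counts are to be read against the 12.8% of all features that rose as deposited and the 8.22% after rescaling. Among 8 tested oligodendrocyte features only 5 had a positive change, and 4 rose (median 0.69, with 2 rises after rescaling). The summed score of the list was 4649 to 5300 at P15 and 7844 to 8720 at P28. miR-219-3p, needed for myelination, was 1621, 1784 and 1603 against 2667, 2790 and 2727 (0.71, adjusted p = 0.00773; 0.0868 after rescaling). The microglia and leukocyte list had 3 rises among 10 (2 after rescaling; sum 3620 to 4488, then 6675 to 8142), led by the myeloid miR-223, at 1078, 1071 and 723 against 2149, 1896 and 2423 (1.19 ± 0.20, adjusted p = 0.00194). Endothelial and mural features rose in 3 of 8 (2 after rescaling; sum 27381 to 32364, then 39365 to 41753), with miR-145 of smooth muscle at 9542, 7973 and 7830 against 14098, 14117 and 14278 (0.75, adjusted p = 0.00443). The 3 were the mural miR-145, miR-143 and the hairpin of miR-143. Neither strand of the endothelial miR-126 was called, and miR-126-3p did not pass without any 1 of the 6 libraries (0.110 to 0.375). On the list for choroid plexus and multiciliated cells 3 of 9 rose (1 after rescaling; sum 7462 to 8646, then 10690 to 13284), on the erythroid list 1 of 7 (none after rescaling; sum 2696 to 3256, then 3846 to 5464), and on the mesenchymal and meningeal list none of 4 on either scale (777 to 1591, then 1612 to 2214). The erythroid share is near that of all features, and the mesenchymal list had no call. Several of these calls were lost when 1 library was left out: miR-34b-5p without any 1 of the 6 (adjusted p = 0.0546 to 0.146), miR-204 without any but P15 replicate 1 (0.0543 to 0.111), miR-211 without P15 replicate 2 or 3 or P28 replicate 1 (0.0567 to 0.0767), miR-146a without any but P15 replicate 1 (0.0720 to 0.141), miR-144* without P15 replicate 2 or 3 or P28 replicate 1 or 3 (0.0769 to 0.145), miR-338-3p without P15 replicate 2 or 3 (0.0507 and 0.0567), and the hairpin of miR-143 without P15 replicate 2 or P28 replicate 1 (0.0628 and 0.0711). In none of these 6 lists did the sums of the ages overlap on the deposited scale, but this was not particular to them. The sums were also separate for the miR-30 family (45157 to 58370, then 59571 to 63228). They were separate downward for the neuron-enriched list (663190 to 715268, then 406462 to 517013). In other lists, such as let-7 (72405 to 86751, then 84413 to 99256), they overlapped. Markers of tissue far from the bulb were low: of 13 Hox-cluster features 7 were above 0 and they summed to 14 to 16 at P15 and 29 to 49 at P28, and the muscle list summed to 79 to 139 and 164 to 238. Of the 2 tested muscle features miR-1 rose on both scales (1.07, adjusted p = 0.0342 as deposited), a call lost without P15 replicate 2 or 3 or P28 replicate 1 or 3 (0.0841 to 0.123). The part of these cells in the changes of other microRNAs was not tested.

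Calls among neighbouring hairpins were compared. Using RefSeq gene positions only to find neighbours on the same strand within 10 kb, 535 of the 718 features could be matched to 1 microRNA gene, and 41 clusters had 2 or more tested features. In 11 clusters 2 or more features passed, in 9 of them all upward and in 2 all downward, and no cluster held calls in both directions, where 92 of the 110 calls overall were upward. In 8 clusters the calls came from 2 or more hairpins, and in the other 3 (miR-141 with miR-200c, miR-224 with miR-452, and let-7f-1 with its neighbours) from forms of 1 hairpin. Counting features that did not pass, 17 of the 41 clusters had changes of both signs. The miR-200 family is encoded in 2 such clusters: 6 of 8 features rose in the one with miR-429, miR-200a and miR-200b, and 3 of 6, all of them forms of miR-141, in the one with miR-141 and miR-200c. The 2 clusters of miR-29 gave 4 of 5 each, and that of miR-212 with miR-132 gave 3 of 6. The falling clusters were miR-296 with miR-298 (3 of 5) and the first section of Dlk1-Dio3 from miR-770 to miR-136 (2 of 24).

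The balance between the 2 strands of a hairpin was compared in the same libraries, since 1 factor per library cancels in this ratio. Any effect of the shared curve of sorted scores would not cancel. None of 202 strand pairs passed in limma after adjustment (33 had an unadjusted p under 0.05, and the lowest adjusted p was 0.091). The log2 ratio of miR-29a over miR-29a* had a change of -1.24 ± 0.22 (adjusted p = 0.091) and that of miR-138 over miR-138-1* by -1.38 ± 0.26 (adjusted p = 0.091), and neither passed. miR-29a held the top rank at P28 and miR-124 held it at P15, and the height of that rank is set by the normalisation. With a minimum score of 50 the ratios of miR-29a and miR-138 both had an adjusted p of 0.047. Without P28 replicate 2, the library with the highest miR-124 of its age, 4 pairs passed, among them miR-124 over miR-124* (-1.71, adjusted p = 0.00675), and without P15 replicate 1 there were 2.

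To ask where the bulb differs from other stations of the migratory route, its change with age was set against that of the RMS between the same ages, with 1 library for the RMS at P15 and a spread shared by all 21 libraries. Of 807 features tested, 2 differed (0.248%), and both belonged to miR-383. The scores of miR-383 in the bulb were 802, 1036 and 966 at P15 and 1285, 1016 and 408 at P28, a change of -0.20 that did not pass (adjusted p = 0.757). In the RMS it was 2 in the P15 library and 475 and 622 at P28, and the difference between the changes was -7.70 ± 0.73 (adjusted p = 3.6e-07). Since the RMS at P15 is 1 library, its spread is taken from the other groups, and a difference between tissues and a deviation of that library cannot be told apart. For miR-124, which fell by 1.17 in the bulb, the RMS libraries held 151496 at P15 and 268975 and 341634 at P28. The difference between the changes was -2.17 ± 0.69 and did not pass (adjusted p = 0.268).

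The change in the bulb was also compared with that of the SVZ between P1 and P6. These are other ages, so tissue and age cannot be told apart here. Of 807 features 58 differed (7.19%), with the change in the bulb lower in 54 (6.69%) and higher in 4 (0.496%). The split was 35 lower to 39 higher when values were taken relative to the median microRNA of each library, and 51 lower to 22 higher after trimmed-mean rescaling. miR-193b differed by -2.79 ± 0.27 (adjusted p = 4.6e-07), with a change of -0.90 in the bulb and 1.89 in the SVZ, and miR-34c, a microRNA of multiciliated cells, by -3.64 ± 0.43 (adjusted p = 9.23e-06), with 0.60 in the bulb and 4.23 in the SVZ. miR-224 differed the other way, by 3.06 ± 0.51 (adjusted p = 0.000417), at 1.97 in the bulb and -1.09 in the SVZ. In the miR-29 family, miR-29a differed by -0.89 ± 0.23 (adjusted p = 0.0192). It held the top rank in the P28 bulb libraries, whose height is set by the normalisation, and the part of this in the difference was not tested. For miR-29c, miR-29b, miR-132 and miR-27a the differences from the SVZ change were -0.63 to 0.43 and none passed. Without the P15 replicate 1 of the bulb 32 features differed, and without its P28 replicate 2 there were 37.

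**Figure D5:**
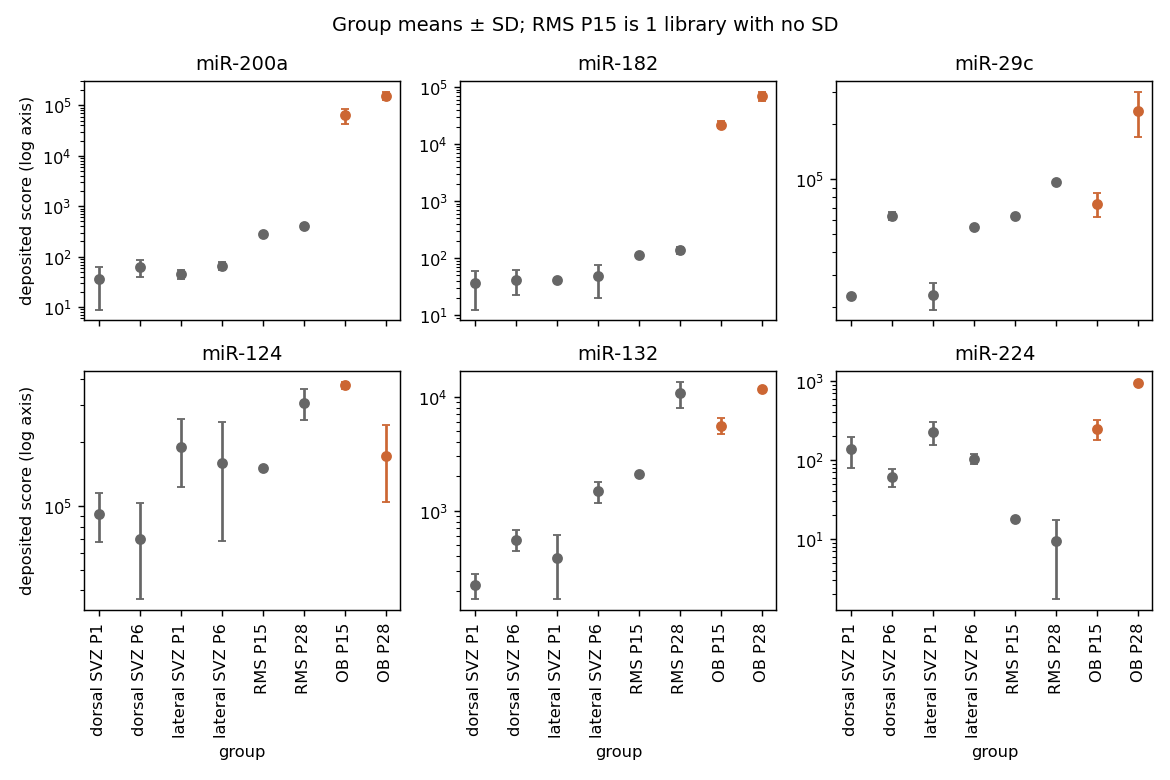
Mean score of miR-200a, miR-182, miR-29c, miR-124, miR-132 and miR-224 in each of the 8 groups of the series (logarithmic vertical axes), with SD as error bars where a group has more than 1 library and the bulb groups coloured. miR-224 reaches 949 in the bulb at P28, and its single RMS library at P15 is at 18.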

How the data were processed

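Small RNA was extracted with the miRNeasy Mini Kit, per the labels' protocols, and fragments of 15 to 50 bases were sequenced on the SOLiD 5500XL. The deposited table holds, for each library, the authors' normalised read counts rounded to whole numbers, treated here as a score and not as counts. Bowtie, DESeq and the genome build mm9 are named in the submitters' processing notes. Their versions and roles are not given in the sources used here, nor is the treatment of reads that match several microRNAs, so values of near-identical family members may share reads.

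Columns were matched to samples by the library names. Features with a score of at least 10 in at least 3 of the 6 bulb libraries were tested on log2(score + 1), a scale that understates changes of low features, in limma 3.58.1 (R 4.3.3) with a mean-variance trend, two-sided, with Benjamini-Hochberg adjustment and a threshold of 0.05. All adjusted p-values in the text come from limma. List sums leave out hairpins. "Rescaled" values were divided by trimmed-mean factors computed over the microRNA features. The 2 comparisons with RMS and SVZ were interaction contrasts over all 21 libraries. The fits were also run on simulated data with set changes and independent normal noise for each feature. Those data lacked the shared curve of sorted scores, so the behaviour of the fits under that curve was not tested.

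The rule for naming took the 12 largest changes per direction with a mean of at least 50 and separate ages, up to 4 members per list by p, all tested members of the miR-200, miR-183 and miR-7 groups, the 10 most abundant features and the leading interaction and strand-ratio results. A subset is printed with its statistics and the rest by counts and ranges. Others named were chosen after their values were seen. The members and the lists, which rest on general knowledge of these microRNAs, were chosen with earlier results of these data known. RefSeq (GRCm38.p6) was used for sequences and neighbours only. miR-124, miR-23b, miR-301b and miR-383 had no entry. Alternatives were another pseudocount, filter, scaling, trend, feature set and set of libraries, the replicate block, and leaving out each library.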

Additional observations from a re-analysis of the deposited data

Results flagged for a closer look

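The change of miR-383 from P15 to P28 differed between the bulb and the RMS by -7.70 ± 0.73 on the log2 scale (limma interaction, adjusted p = 3.6e-07), and that of its hairpin by -4.42 ± 0.93 (adjusted p = 0.0401). These 2 features passed the test of the difference between the changes, but the RMS at P15 is 1 library, so its spread is taken from the other groups and a deviation of that library cannot be told apart from a difference between tissues. The hairpin had scores of 48, 132 and 107 at P15 and 154, 171 and 82 at P28 in the bulb, against 1 at P15 and 59 and 65 at P28 in the RMS. Both rest on the single RMS library at P15, where miR-383 was at 2, while the lowest score of miR-383 in any other library of the series was 22, in the dorsal SVZ at P1. In the bulb, miR-383 was lower in P28 replicate 3 (408) than in the other P28 libraries (1285 and 1016).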

How the results depend on the processing

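The count of 110 bulb features was 92 to 116 with a pseudocount of 8, no filter, a minimum of 50, either rescaling or mature and star strands alone. It was 50 (49 higher, 1 lower) without the mean-variance trend, 52 (47 and 5) with all RNA classes fitted together, 57 (46 and 11) with bulb and RMS libraries together and 6 (5 and 1) with all 21 libraries. Leaving out each bulb library gave 56 to 108. The replicate numbers of the titles did not pair the libraries (the correlations of deviations for the same number were -0.0077, 0.0528 and -0.0504, and 2 of 6 libraries correlated best with their own number). With the replicate block the count was 86 (71 higher, 15 lower). Of 71 named features called, 15 lost and 11 others gained a call with trimmed-mean rescaling, 39 were lost without the trend, 65 with all 21 libraries and 11 with the replicate block, and none reversed its direction. The comparison with the RMS, 2 features, gave 1 with a pseudocount of 8, with no filter, with mature and star strands alone and with the replicate block, 5 relative to the median microRNA, and 1 to 3 when a library was left out. The comparison with the SVZ, 58 features, gave 23 with all RNA classes, 56 with the replicate block and 32 to 73 when a library was left out. The strand ratios gave 0 pairs, 2 with a minimum of 50, 0 with the replicate block and 0 to 4 when a library was left out. The causes of these shifts were not tested. The RMS library at P15 could not be left out. Depth is unknown, so the precision of low scores cannot be stated.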

Other observations

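Scores that fell out of line in 1 library were counted among features that reached 500 in at least 1 library of an age, 247 at P15 and 271 at P28. In P28 replicate 3 there were 8 features at least 2-fold below both other libraries of that age: miR-212-5p, miR-322*, miR-200b, miR-495, miR-200c, the hairpin of miR-200b, miR-383 and miR-101b. P28 replicate 1 had 4 (miR-18a, miR-31, miR-129-5p and miR-210), P28 replicate 2 had 1 (miR-320), and P15 replicates 1, 2 and 3 had 1, 2 and 3. No library had a feature at least 2-fold above both others.

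Some star strands rose where the more abundant strand did not pass. miR-31* went from 912, 592 and 374 to 1036, 1261 and 1315 (1.03, limma adjusted p = 0.0249), while miR-31 was 1161, 1479 and 814 against 937, 2450 and 1983 (0.57, adjusted p = 0.275). miR-383* rose from a mean of 9.0 ± 2.0 to 37.0 ± 3.61 (SD, n = 3 per age; 1.94, limma adjusted p = 0.0233), while miR-383 did not pass. The scores of miR-383* were 7, 11 and 9 at P15 and 40, 33 and 38 at P28. Those at P15 lay near the minimum score of 10, with 7 and 9 below it, so miR-383* entered the test through its P28 scores. Since the depth is unknown, the precision of such low P15 scores, and so of the size of this rise, cannot be stated. The change in the log2 strand ratio was -0.46 for miR-31 over miR-31* (limma adjusted p = 0.543). For miR-383 over miR-383* it was -2.14 (adjusted p = 0.116). Neither ratio passed, so a difference between the strands was not shown. The features of this paragraph were chosen after their values were seen.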
